A study of Zea mays with 12 samples.

Results

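The comparison described here is that of bundle sheath (BS) with mesophyll (M) cells in the mature section of the maize leaf. Both cell types came from the same place, section 14 of the 3rd leaf of 9-day-old Mo17 inbred plants, which lies near the tip, 9 cm above the end of the sink-to-source transition. Cells were cut out of fixed, paraffin-embedded tissue by laser microdissection (LCM), their RNA was amplified through 1 round, and 2 libraries per cell type were sequenced. The same study profiled BS and M cells of the sink-source transition (SST) at -1 cm and of the maturing section at 4 cm, with 2 libraries per group and 12 in all, and these are used only where the mature section is set against them. No plant was treated, and all groups share the inbred line, the plant age, the leaf, the growth of the plants and the amplification. The paper's methods name leaf sections of Mo17 and of B73 together. By the paper, the SST received less light than the 2 later sections, so a comparison with the SST also differs in light. Of 110005 genes in the table, 47572 were above 0 in at least 1 of the 12 libraries, and 31838 of these were above 0 in at least 1 of the 4 mature libraries. These 31838 genes are the members, 18519 of them were above 0 in all 4 mature libraries, and 26824 of them passed the filter on low values and were tested.

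Maize fixes carbon by the C4 pathway, in which M cells capture bicarbonate with phosphoenolpyruvate carboxylase and pass the product as malate or aspartate to BS cells. BS cells wrap the veins, release the carbon dioxide by decarboxylation and refix it with Rubisco in the Calvin cycle. The BS is also the usual place of starch in a maize leaf, whereas much of the nitrate reduction and of the photosystem II activity is known from M cells.

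The identity of the captured cells was checked first with 5 markers of each cell type. All values are FPKM, fragments per length of transcript and per mapped fragments of the library, scaled so that the upper quartile of every library is the same. The BS markers were the genes for NADP-malic enzyme (me3), PEP carboxykinase (PEPCK), the Rubisco small subunit (ssu1), Rubisco activase (rca1) and the factor Golden2. The last is G2 in the paper and GLK13 by its RefSeq name, which is used here. These 5 genes had summed levels of 21370 and 32040 FPKM in the BS libraries and of 2019 and 2467 FPKM in the M libraries. Those for PEP carboxylase (PEPC1), pyruvate orthophosphate dikinase (PPDK), NADP-malate dehydrogenase (mdh6), carbonic anhydrase (CA) and the factor glk1 summed to 38630 and 47390 FPKM in M and to 22580 and 15010 FPKM in BS. All 5 BS markers were called BS-enriched, and 3 of the 5 M markers, PEPC1, mdh6 and CA, were called M-enriched, while PPDK had a log2 BS/M of -1.2 ± 0.23 (SE, adjusted p = 0.0124) and glk1 a log2 BS/M of -1.79 ± 0.37 (SE, adjusted p = 0.0163). For all 10 markers the levels of the cell types did not overlap. The 5 BS markers were about 10-fold apart in sum, while M markers remained abundant in the BS libraries. Each of the 5 M markers was higher in BS replicate 1 than in BS replicate 2, and each of the 5 BS markers was lower. With 1 library left out, GLK13 and the 3 called M markers lost their calls, at adjusted p of up to 0.0118 for GLK13, 0.0359 for PEPC1, 0.0304 for mdh6 and 0.029 for CA. In pooled captures of this kind fewer cells of a type and less RNA per cell cannot be told apart.

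**Figure D1:**
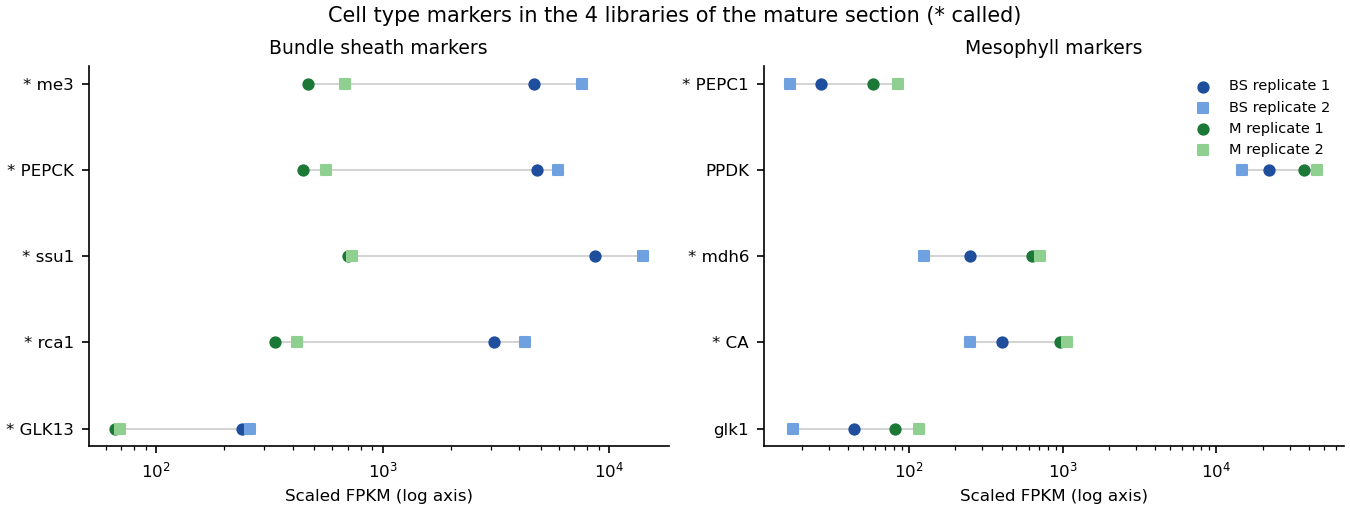
Level of each marker gene in the 4 mature libraries, with scaled FPKM on a log axis, BS libraries in blue, M libraries in green, circles for replicate 1 and squares for replicate 2, and an asterisk before genes called at an adjusted p below 0.01. The BS markers span a wider gap than the M markers, and BS replicate 1 lies nearer to the M libraries than BS replicate 2 for all 5 M markers.

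The 4 libraries held 23185 to 25970 genes above 0, and their relative depths, read from the step that 1 read gives in low values, ran from 1 to 1.39. Replicates correlated at r = 0.917 for BS and 0.917 for M over the 32548 genes tested, and libraries of different cell types at 0.848 to 0.889. These correlations are across genes, which are not replicates. A single gene, GRMZM2G309058, took 10.4 to 19.0% of the FPKM sum of a library. Markers of other cells were checked in the same way. The 10 epidermal and cuticle genes summed to 7.93 and 3.06 FPKM in BS and to 21.7 and 17.8 FPKM in M, none of the 7 tested was called, and their part in the M-enriched results was not tested. Of the 12 xylem and lignifying-cell genes 9, laccases among them, were listed at 0 in all 4 libraries. The list summed to 1.15 and 2.58 FPKM in BS and to 5.20 and 4.20 FPKM in M, with both M libraries above both BS libraries. It lacks cesa10, a cellulose synthase gene of the secondary wall described below. That gene was more abundant than the whole list, and its levels in the 2 cell types overlapped. The part of these genes in the results was not tested. The 9 phloem and companion-cell genes summed to 72.8 to 123 FPKM, and the sums of the 2 cell types overlapped. This list lacks the sucrose transporter sut1, which was higher in both BS libraries and is described below. The 29 genes of dividing cells summed to 893 to 1179 FPKM, also with overlap. Single members did differ. Of the phloem genes 7 were fitted toward BS and 2 toward M, with 1 called in each direction. Of 28 tested genes of dividing cells 4 were BS-enriched and 1 M-enriched, beside 3.66% and 2.07% of all tested genes. Their part in the results was not tested.

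With all 4 libraries BS-enriched genes outnumbered M-enriched genes, and without M replicate 1 they did not, at 933 BS-enriched against 1023 M-enriched genes. Of the 32548 genes tested, 5.72% passed the threshold of 0.01 on the adjusted p, 1190 of them BS-enriched (3.66%) and 673 M-enriched (2.07%). At an unadjusted p below 0.05 the balance was the other way, with 4212 genes toward BS (12.9%) and 4512 toward M (13.9%). In each called gene the libraries of the 2 cell types did not overlap, as was also true of 20.3% of all tested genes with BS above M and of 22.5% with M above BS. BS-enriched genes differed by at least 2-fold in 1151 cases, had a median absolute log2 BS/M of 2.27 and a median level of 24.2 FPKM in BS. M-enriched genes differed by at least 2-fold in 639 cases, with a median of 1.98 and a median level of 12.0 FPKM in M. High levels were more frequent on the BS side, where 50 genes averaged above 1000 FPKM in their cell type, against 9 on the M side. With 2 libraries per cell type an exact permutation test of 1 gene cannot go below p = 0.333, so each call rests on the spread that limma pooled over the 6 groups of the study. A fit to the mature libraries alone called 9 BS-enriched and 2 M-enriched genes, and 2 of the 123 called genes named below held in it.

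The M-enriched side depended more on single libraries. With 1 library left out, the fewest of its 673 calls were kept without M replicate 2. Without BS replicate 2 the M-enriched calls fell to 356, of which 241 were among the 673, and without M replicate 1 they rose to 1023, of which 355 were. Without BS replicate 1 they rose to 1027. The BS-enriched calls ran from 765 without M replicate 2 to 1615 without BS replicate 1. Among the 504 M-enriched genes whose levels differed between the BS libraries, BS replicate 1 was the higher one in 79.4%, against 48.7% of all tested genes that differed. Of the genes named below, 50 of 76 BS-enriched and 4 of 47 M-enriched kept their call in all 4 fits that left out 1 mature library, and no call turned to the other direction in any of them. Since the libraries of the 2 cell types did not overlap in any called gene, leaving 1 out could not turn a direction. What set BS replicate 1 apart was not tested.

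**Figure D2:**
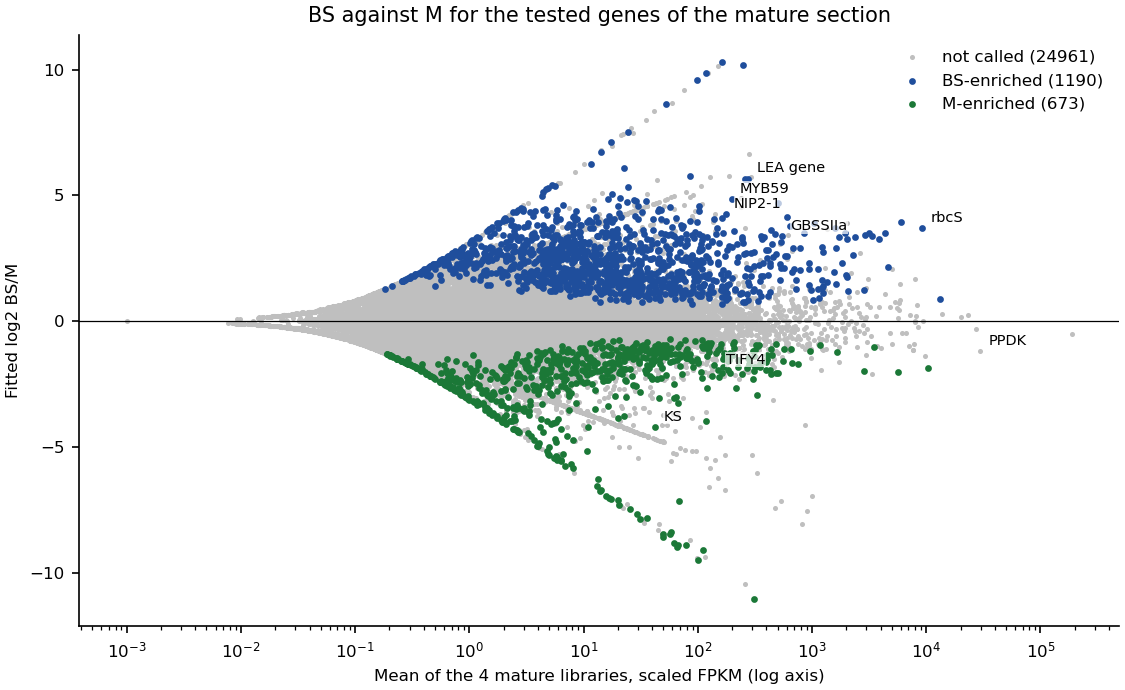
Fitted log2 BS/M of the 26824 tested genes of the mature section (vertical axis) against their mean level over the 4 libraries in scaled FPKM (log axis), with 1190 BS-enriched genes in blue, 673 M-enriched genes in green and the others in grey. The points along the outer edges are genes listed at 0 in both libraries of the other cell type, and rbcS, a Rubisco small subunit gene, lies at 3.69.

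All called starch genes were BS-enriched, those of synthesis and those of breakdown. The 24 genes of the list that were tested summed to 5985 and 7203 FPKM in BS and to 1423 and 1999 FPKM in M. Starch is built in the chloroplast from ADP-glucose by starch synthases and branching enzymes, and is broken down by beta-amylases, phosphorylases and debranching enzymes. Of these 24 genes 15 were called BS-enriched and 0 M-enriched by limma, beside 3.66% and 2.07% of all tested genes. On the M side 1 gene was below an unadjusted p of 0.05 by limma, beside 13.9% of all tested genes. The median log2 BS/M was 1.56, beside 0 over all tested genes. All 24 were found through a pathway annotation that was given to genes chosen in these same samples, so their count is not independent evidence of a direction. A list found by gene name alone gave 4 BS-enriched and 0 M-enriched genes of 14, with a median of 0.29. With 1 library left out the count of 15 fell to between 10, without M replicate 1, and 14, without BS replicate 1.

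For ADP-glucose synthesis, agpsl1, a small subunit of ADP-glucose pyrophosphorylase, had 393 and 428 FPKM in BS and 135 and 167 FPKM in M cells. APL1, annotated as its large subunit, had 336 and 435 FPKM in BS and 62.8 and 69 FPKM in M cells. They had a log2 BS/M of 1.45 ± 0.19 (SE, adjusted p = 0.00246) and a log2 BS/M of 2.53 ± 0.17 (SE, adjusted p = 0.000122), with no overlap between the cells. Another gene, bt2, the small subunit gene known from the endosperm, was called at a far lower level, with 5.25 and 9.29 FPKM in BS and 1.66 and 1.66 FPKM in M cells. Starch synthases extend the glucan chains. GBSSIIa, a granule-bound starch synthase of the kind that makes amylose, had 877 and 1112 FPKM in BS and 80.5 and 113 FPKM in M cells, a log2 BS/M of 3.37 ± 0.19 (SE, adjusted p = 6.2e-05). Soluble starch synthase ss1 had 733 and 852 FPKM in BS and 231 and 282 FPKM in M cells, a log2 BS/M of 1.63 ± 0.13 (SE, adjusted p = 0.000305). SS3, annotated as starch synthase 3, had 255 and 247 FPKM in BS and 42.1 and 56.1 FPKM in M cells, a log2 BS/M of 2.36 ± 0.16 (SE, adjusted p = 0.000138). By level GBSSIIa led in BS, then ss1, then SS3, and by BS bias GBSSIIa led, then SS3, then ss1. A branching enzyme gene, GRMZM2G073054, followed with a log2 BS/M of 2.42 ± 0.26 (SE, adjusted p = 0.000975).

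Genes of starch breakdown were on the same side as those of synthesis. CT-BMY (GRMZM2G007939), annotated as the chloroplast beta-amylase that releases maltose, was the most abundant gene of the list with 2853 and 3368 FPKM in BS and 697 and 1097 FPKM in M cells, a log2 BS/M of 1.83 ± 0.22 (SE, adjusted p = 0.00179). The alpha-glucan phosphorylase pho1 had 19 and 31.8 FPKM in BS and 1.88 and 0.958 FPKM in M cells, the largest difference of the list, a log2 BS/M of 3.95 ± 0.39 (SE, adjusted p = 0.000724). The other 6 called genes, among them ones annotated as the phosphorylase PHS2, the maltose-handling glucanotransferase DPE2 and the debranching enzyme ISA1, had log2 BS/M of 1.44 to 2.2. The large subunit AGP2 was the lone list member below an unadjusted p of 0.05 with M above BS, at a log2 BS/M of -1.74 (adjusted p = 0.0826), and was not called. Calls of bt2, agpsl1 and CT-BMY were lost with 1 library left out, at adjusted p of up to 0.0239, 0.0163 and 0.0137. For CT-BMY this was without BS replicate 2 alone, for agpsl1 without BS replicate 2 or M replicate 1, and for bt2 in every fit but that without BS replicate 1.

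**Figure D3:**
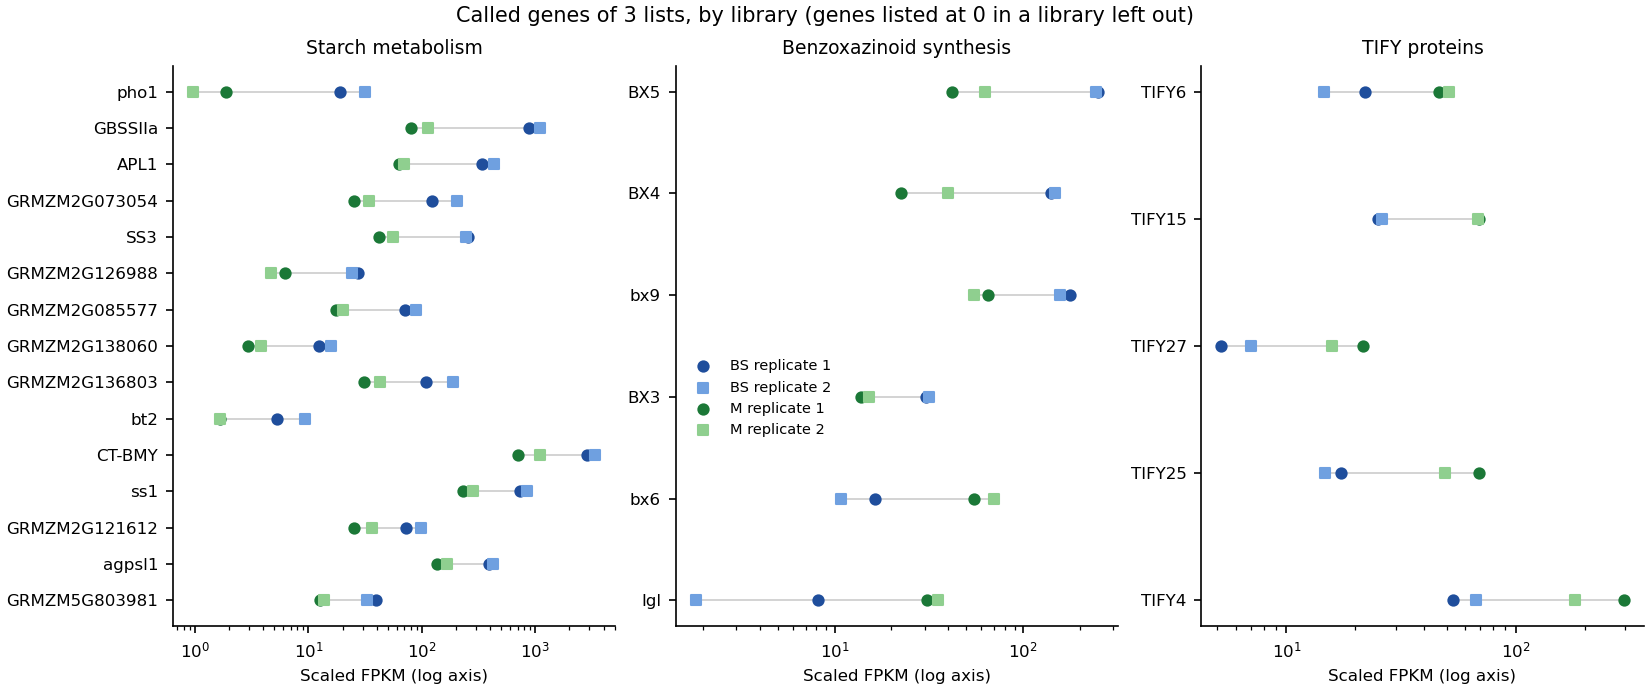
Levels of the called genes of the starch, benzoxazinoid and TIFY lists in the 4 mature libraries, in scaled FPKM on log axes, with 1 row per gene ordered by its log2 BS/M, BS libraries in blue, M libraries in green, circles for replicate 1 and squares for replicate 2. All 15 starch genes lie to the right in BS, the benzoxazinoid genes split, with bx6 and Igl higher in M, and the TIFY genes are higher in M (TIFY1, listed at 0 in a BS library, is not drawn).

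Most called genes of the Calvin cycle and photorespiration were BS-enriched. Of 11 tested genes of Rubisco and the Calvin cycle, 6 were called BS-enriched and 0 M-enriched, beside 3.66% and 2.07% of all tested genes. The median was 2.36, with 0 genes below an unadjusted p of 0.05 on the M side by limma, beside 13.9% of all tested genes. A list found by a search of the annotation texts gave 4 BS-enriched and 1 M-enriched of 8 genes, with a median of 1.27. The M-enriched gene, GRMZM5G852968, annotated as triosephosphate isomerase, had 491 and 745 FPKM in M and 235 and 105 FPKM in BS, a log2 BS/M of -1.94 ± 0.36 (SE, adjusted p = 0.00995), and lost its call without BS replicate 2, M replicate 1 or M replicate 2 (adjusted p of up to 0.0701). The study's annotation also places it in the cytosolic branch of glycolysis. The paper's text, however, names another gene as the cytosolic form and describes this one as highly expressed in M cells. Neither list holds gpb1, the B subunit gene of plastid glyceraldehyde-3-phosphate dehydrogenase, or GRMZM5G836250, annotated as fructose-1,6-bisphosphatase. Both genes were called M-enriched and are described below, so the M-enriched counts depend on list membership. The assembly and activation factors of Rubisco did not move as a block. The activase gene rca3 had 24.5 and 21.3 FPKM in BS and 3.97 and 4.52 FPKM in M cells, a log2 BS/M of 2.36 ± 0.28 (SE, adjusted p = 0.00164). By contrast bsd2, a chaperone of Rubisco assembly in maize, had 261 and 249.8 FPKM in BS and 300.4 and 193 FPKM in M cells, a log2 BS/M of 0.08 ± 0.19 (SE, adjusted p = 0.955), and the libraries of the cell types overlapped. RLSB, which binds the mRNA of the Rubisco large subunit in maize, had a log2 BS/M of -0.06 ± 0.33 (SE, adjusted p = 1). The interval of its difference ran from -0.82 to 0.70 on the log2 scale, and that of bsd2 from -0.35 to 0.52.

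Photorespiration recycles the product of Rubisco's reaction with oxygen. Of its 5 tested genes 4 were called BS-enriched, beside 3.66% of all tested genes, with a median of 1.66. Of the list, 3 genes were found by a study annotation, ZmBOU by its fixed identifier and cat1 by its name. The catalase gene cat1, also called BS-enriched, is counted again among the enzymes that remove reactive oxygen below. GLDP (GRMZM2G104310), annotated as the P subunit of glycine decarboxylase, which releases carbon dioxide in the mitochondrion, had 128 and 178 FPKM in BS and 20.3 and 30.5 FPKM in M cells, a log2 BS/M of 2.59 ± 0.23 (SE, adjusted p = 0.000469). PGP (GRMZM2G018441), annotated as phosphoglycolate phosphatase, the first step of the pathway, had 189.9 and 318 FPKM in BS and 75.6 and 79.6 FPKM in M cells, a log2 BS/M of 1.66 ± 0.25 (SE, adjusted p = 0.0043). ZmBOU, a mitochondrial carrier whose Arabidopsis relative is needed for photorespiration, had 52.4 and 60.9 FPKM in BS and 5.89 and 9.35 FPKM in M cells, a log2 BS/M of 2.88 ± 0.21 (SE, adjusted p = 0.000195). The gene annotated as hydroxypyruvate reductase, GRMZM2G074282, was not called at 0.43 (adjusted p = 0.0953). In these genes the cell types did not overlap. Without BS replicate 2, M replicate 1 or M replicate 2 PGP lost its call, at an adjusted p of up to 0.0256.

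Carriers of the C4 shuttle split between the cells by gene. Of 6 tested transporters, 2 were BS-enriched and 2 M-enriched, beside 3.66% and 2.07% of all tested genes. The plastid dicarboxylate transporter pDCT2 had 726 and 1007 FPKM in BS and 75.7 and 80.4 FPKM in M cells, a log2 BS/M of 3.45 ± 0.16 (SE, adjusted p = 3.88e-05), and its relative pDCT1 had 315 and 534 FPKM in M and 144 and 87.6 FPKM in BS, a log2 BS/M of -1.86 ± 0.32 (SE, adjusted p = 0.00799). The oxoglutarate/malate transporter pOMT1 had 356 and 471 FPKM in M and 196 and 104 FPKM in BS, a log2 BS/M of -1.52 ± 0.27 (SE, adjusted p = 0.00935). The PEP/phosphate translocators ppt1 and ppt2 were at or below 2.23 FPKM in every mature library. Without BS replicate 2 no transporter was called M-enriched, with adjusted p of up to 0.0496 for pDCT1 and 0.0638 for pOMT1. Close copies among these genes, as among the Rubisco small subunit genes, may share reads. Among the related enzymes, PPDK2, the second gene for pyruvate orthophosphate dikinase, lay opposite to the abundant PPDK with 359 and 385 FPKM in BS and 66.7 and 78 FPKM in M cells, a log2 BS/M of 2.36 ± 0.12 (SE, adjusted p = 3.94e-05), and cytosolic malate dehydrogenase mdh4 had 2373 and 2634 FPKM in BS and 600.1 and 687 FPKM in M cells, a log2 BS/M of 1.96 ± 0.13 (SE, adjusted p = 0.00011). The most abundant M-enriched genes with an annotation included gpb1, the B subunit of plastid glyceraldehyde-3-phosphate dehydrogenase, with 4364 and 5105 FPKM in M and 2366 and 2203 FPKM in BS, and a gene annotated as fructose-1,6-bisphosphatase, GRMZM5G836250, with 604 and 651 FPKM in M and 347 and 329.8 FPKM in BS. The calls of these 2 genes were lost whichever mature library was left out, at adjusted p of up to 0.052 and 0.0315.

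Genes of the light reactions were mostly not called. Of 7 tested photosystem I genes 2 were called BS-enriched, and of 10 genes of light harvesting and photosystem II 1 was, with 0 called M-enriched in either list by limma, beside 5.72% of all tested genes called. At an unadjusted p below 0.05, 2 photosystem I genes and 6 of light harvesting and photosystem II were on the M side, and the medians were 0.24 and -0.87. The photosystem I genes psa6 and psaH were higher in BS, psa6 with 16546 and 17989 FPKM in BS and 9930.4 and 8718 FPKM in M cells and psaH with 72.4 and 86.4 FPKM in BS and 35.2 and 28.9 FPKM in M cells, at log2 BS/M of 0.89 (adjusted p = 0.00575) and 1.3 (adjusted p = 0.00392), and psaN had a log2 BS/M of 0.24 ± 0.26 (SE, adjusted p = 0.666). Both calls were lost without BS replicate 2 and without M replicate 2, at adjusted p of up to 0.021 for psa6 and 0.0229 for psaH. PSA2, an assembly factor of photosystem I, had a log2 BS/M of -0.92 ± 0.18 (SE, adjusted p = 0.0125) with M above BS. Among antenna genes, which are close copies that may share reads, lhcb4 was BS-enriched with 628 and 814 FPKM in BS and 128 and 165 FPKM in M cells, a log2 BS/M of 2.3 ± 0.17 (SE, adjusted p = 0.0002). The antenna genes lhcb6, lhcb3, lhcb7 and cp29 were higher in both M libraries than in either BS library, with log2 BS/M of -1.61 (adjusted p = 0.0299), -0.92 (adjusted p = 0.0493), -0.82 (adjusted p = 0.0535) and -0.98 (adjusted p = 0.0522), and none of the 4 was called. For lhcb6 the levels were 2401 and 2693 FPKM in M and 1299 and 534 FPKM in BS, so that BS replicate 1 held over 2-fold of BS replicate 2.

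Electron carriers downstream of photosystem I differed between paralogues. Ferredoxins take electrons from photosystem I and hand them to NADP reductase, thioredoxin reductase and other enzymes. Of 12 tested genes of ferredoxins and electron transport 2 were BS-enriched and 1 was M-enriched, beside 3.66% and 2.07% of all tested genes. The ferredoxin fdx2 had 2719 and 6079 FPKM in BS and 443 and 366 FPKM in M cells, a log2 BS/M of 3.33 ± 0.34 (SE, adjusted p = 0.000878), and fdx3, at a lower level, had 146 and 187 FPKM in BS and 75.2 and 79.4 FPKM in M cells, a log2 BS/M of 1.09 ± 0.14 (SE, adjusted p = 0.00221). FDX1, the most abundant of them, had 9652 and 11329.6 FPKM in M and 5319 and 4136 FPKM in BS, a log2 BS/M of -1.16 ± 0.22 (SE, adjusted p = 0.0116), just outside the threshold. The NADP reductase L-FNRII was M-enriched with 314 and 249 FPKM in M and 116 and 80.4 FPKM in BS, a log2 BS/M of -1.53 ± 0.24 (SE, adjusted p = 0.00496), and lost its call without BS replicate 2, M replicate 1 or M replicate 2, at an adjusted p of up to 0.0283. The 2 genes of PGR5, a protein of cyclic electron flow, had log2 BS/M of 0.15 (adjusted p = 0.9) and -0.45 (adjusted p = 0.341). Pigment and isoprenoid synthesis had 0 BS-enriched and 2 M-enriched genes of 26, beside 3.66% and 2.07% of all tested genes. In this list 4 genes were below an unadjusted p of 0.05 on the BS side and 9 on the M side by limma. The M-enriched genes were dxr, an early enzyme of the plastid isoprenoid pathway, at -1.83 (adjusted p = 0.00612), and the carotenoid enzyme ZDS at -1.0 (adjusted p = 0.00902), and both calls were lost without BS replicate 2, at adjusted p of up to 0.0424 and 0.0462.

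**Figure D4:**
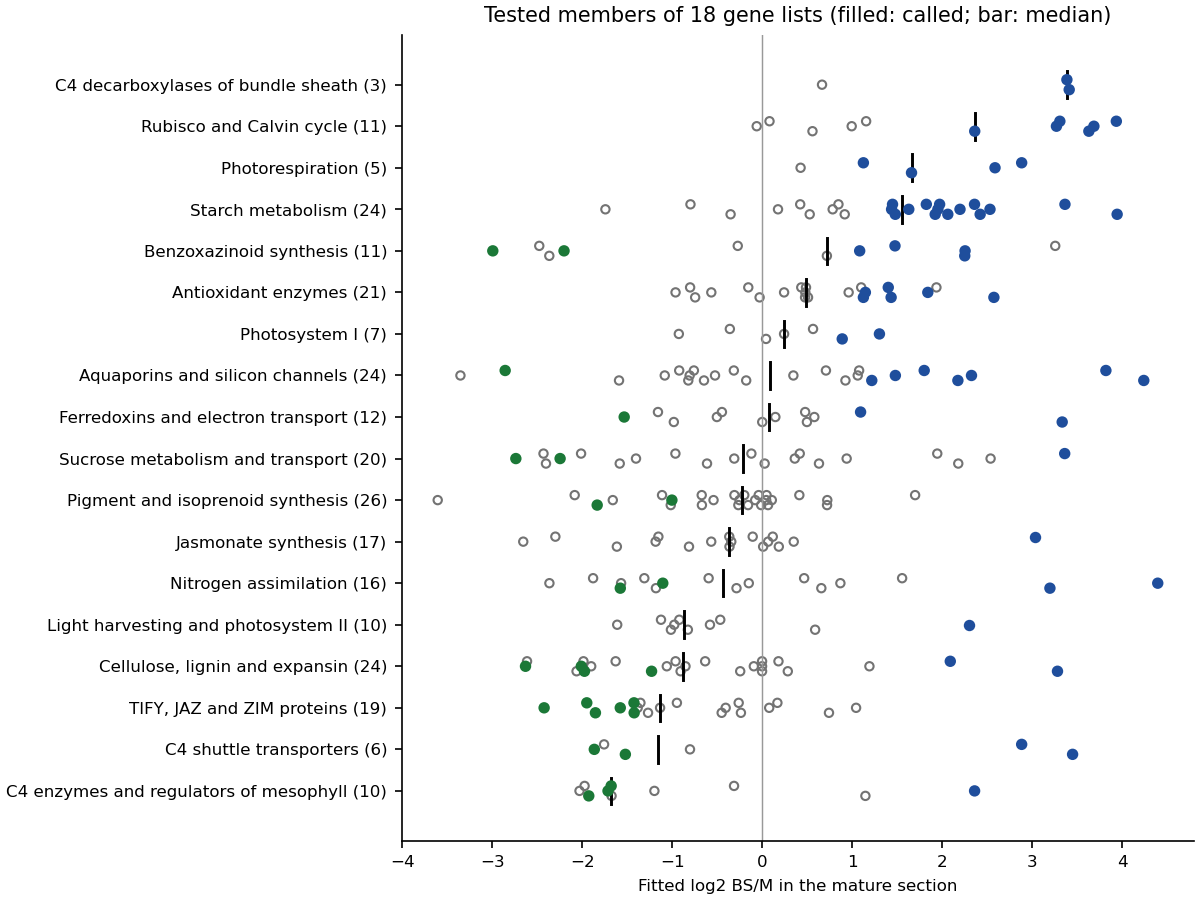
Fitted log2 BS/M of every tested member of 18 gene lists (horizontal axis), with filled points for called genes, blue toward BS and green toward M, open points for genes that were not called, and a black bar at each list's median. The number of tested genes stands in brackets, and the medians run from -1.68 for the M-cell C4 enzymes to 3.39 for the C4 decarboxylases.

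Enzymes that remove reactive oxygen were BS-enriched in 6 of 21 tested cases and M-enriched in 0, with a median of 0.49. Of all tested genes 3.66% were BS-enriched and 2.07% M-enriched. By limma 12 genes were below an unadjusted p of 0.05 on the BS side and 2 on the M side. The 6 were superoxide dismutases and catalases. Superoxide dismutase turns superoxide into hydrogen peroxide, and catalase, in the peroxisome, destroys the peroxide that photorespiration makes. The cytosolic dismutase genes sod9 and sod4 had 570.1 and 609 FPKM in BS and 251 and 282 FPKM in M cells and 73.3 and 87.9 FPKM in BS and 29.4 and 31 FPKM in M cells respectively, at log2 BS/M of 1.15 (adjusted p = 0.00111) and 1.4 (adjusted p = 0.00165). The manganese dismutases SOD3.4 and sod3 followed at 2.58 (adjusted p = 0.00048) and 1.43 (adjusted p = 0.00923). Catalase cat2 had 531 and 765 FPKM in BS and 158 and 199 FPKM in M cells, a log2 BS/M of 1.84 ± 0.24 (SE, adjusted p = 0.00266), and cat1 had 45.9 and 55.4 FPKM in BS and 21.8 and 24.3 FPKM in M cells, a log2 BS/M of 1.13 ± 0.13 (SE, adjusted p = 0.00167). Levels in the 2 cell types were thus about 2-fold to 6-fold apart. The abundant ascorbate pathway and thioredoxin genes were not called, among them dhar1, a dehydroascorbate reductase with 585 and 601 FPKM in BS and 500.3 and 500.3 FPKM in M cells, and the ascorbate peroxidase apx at 0.48 (adjusted p = 0.0951). Without BS replicate 2 the count of 6 fell to 4, when cat2 and sod3 lost their calls at adjusted p of up to 0.0167 and 0.0529.

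Channels for water and silicon were divided by family member. Aquaporins of the PIP group sit in the plasma membrane, TIP members in the vacuole membrane, and NIP2 members carry silicic acid. Of 24 tested genes, with a median of 0.09, 7 were BS-enriched and 1 M-enriched, beside 3.66% and 2.07% of all tested genes. The silicon channel NIP2-1, known as Lsi1, had 269 and 399.9 FPKM in BS and 14.7 and 19.9 FPKM in M cells, a log2 BS/M of 4.24 ± 0.25 (SE, adjusted p = 6.57e-05), which placed it among the largest differences of named genes. Its relative NIP2-2 had 20.5 and 15.3 FPKM in BS and 0.803 and 1.27 FPKM in M cells, a log2 BS/M of 3.82 ± 0.50 (SE, adjusted p = 0.00257). Both silicon channels were more than 10-fold higher in BS. PIP2-2 had 622 and 631 FPKM in BS and 105 and 148 FPKM in M cells, a log2 BS/M of 2.33 ± 0.20 (SE, adjusted p = 0.000386), and PIP1-3 and PIP1-5 lay at 1.48 (adjusted p = 0.00129) and 1.22 (adjusted p = 0.00135). On the other side, PIP2-3 had 5.53 and 12.9 FPKM in M and 1.48 and 0.585 FPKM in BS, a log2 BS/M of -2.85 ± 0.43 (SE, adjusted p = 0.00458). The 2 most abundant aquaporin genes were not called, PIP1-1 with 943 and 1015 FPKM in BS and 1436 and 1903 FPKM in M cells and TIP2-1 with 616 and 1053 FPKM in BS and 455 and 532 FPKM in M cells. Without BS replicate 2 the 7 BS-enriched calls fell to 4 and that of PIP2-3 was lost (adjusted p = 0.0245), and PIP2-5, PIP2-6 and NIP2-2 lost theirs at adjusted p of up to 0.032, 0.0425 and 0.0173.

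Nitrogen and sucrose metabolism had called genes on both sides. Nitrate is reduced by nitrate reductase and nitrite reductase, and the ammonium is bound by glutamine synthetase and glutamate synthase. Of 16 tested genes 2 were BS-enriched and 2 M-enriched, beside 5.72% of all tested genes called. Nitrate reductase NR1 and nitrite reductase NIR were both higher in M, NR1 with 291 and 256 FPKM in M and 123 and 44.6 FPKM in BS and NIR with 129 and 135 FPKM in M and 55.4 and 35.2 FPKM in BS, and only NIR was called, at -1.58 (adjusted p = 0.00938) against -1.88 (adjusted p = 0.0166) for NR1. Ferredoxin-dependent glutamate synthase GLSF was also higher in M and was not called, at -1.57 (adjusted p = 0.0114). The cytosolic glutamine synthetases gln6 and gln2 were called BS-enriched and gln4 M-enriched, at 3.2 (adjusted p = 0.000469), 4.4 (adjusted p = 0.00616) and -1.1 (adjusted p = 0.00933), while plastid gs2 was not, at 0.47 (adjusted p = 0.346). Beside 3.66% and 2.07% of all tested genes, 1 of 20 tested genes of sucrose metabolism and transport was BS-enriched and 2 M-enriched. These were sfp5 at 3.36 (adjusted p = 0.00898), the sucrose-phosphate synthase sps1, which makes the precursor of sucrose, at -2.24 (adjusted p = 0.00731), and the sucrose synthase sus1 at -2.74 (adjusted p = 0.00869). The sucrose transporter sut1, which loads the phloem in maize, had 41.5 and 43.6 FPKM in BS and 11.9 and 4.2 FPKM in M cells and was not called, at 2.54 (adjusted p = 0.0176). The calls of NIR, gln2, gln4, sfp5, sps1 and sus1 were each lost with at least 2 of the 4 libraries left out in turn, at adjusted p of up to 0.0557, 0.0502, 0.0506, 0.0559, 0.055 and 0.0502, whereas gln6 kept its call in all 4 fits.

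Benzoxazinoids are defence compounds of grasses, made from indole by 4 successive cytochrome P450 enzymes and then stored as glucosides. Transcripts of this pathway were split between the cells. Of 11 tested genes, with a median of 0.72, 4 were BS-enriched and 2 M-enriched, beside 3.66% and 2.07% of all tested genes. The P450 genes BX3, BX4 and BX5 were BS-enriched. BX5 had 249 and 242 FPKM in BS and 42.1 and 62.4 FPKM in M cells, a log2 BS/M of 2.26 ± 0.20 (SE, adjusted p = 0.000466). BX4 had 141 and 147 FPKM in BS and 22.6 and 39.7 FPKM in M cells, a log2 BS/M of 2.25 ± 0.24 (SE, adjusted p = 0.00101). BX3 stood lower, with 30.3 and 31.8 FPKM in BS and 13.8 and 15.2 FPKM in M cells, a log2 BS/M of 1.08 ± 0.16 (SE, adjusted p = 0.0038). In all 3 genes both BS libraries stood above both M libraries. The glucosyltransferase bx9, which makes the storage form, had 176 and 157 FPKM in BS and 65 and 54.5 FPKM in M cells, a log2 BS/M of 1.48 ± 0.16 (SE, adjusted p = 0.00115), and its partner bx8 was not called at 0.72 (adjusted p = 0.152). In the other direction, the dioxygenase gene bx6, which acts on the glucosides, had 54.5 and 70.1 FPKM in M and 16.3 and 10.8 FPKM in BS, a log2 BS/M of -2.2 ± 0.37 (SE, adjusted p = 0.00739). Igl, which makes free indole, had 31 and 35.1 FPKM in M and 8.12 and 1.83 FPKM in BS, a log2 BS/M of -2.99 ± 0.52 (SE, adjusted p = 0.00844). The first genes of the pathway were not called, bx1, which also makes indole, at -0.27 (adjusted p = 0.838) and bx2, the first P450, at -2.36 (adjusted p = 0.0469) with M above BS. BX4, BX5 and bx9 kept their calls with each library left out, BX3 lost its call in 3 of the 4 fits (adjusted p of up to 0.0176), Igl without M replicate 1 or M replicate 2 (up to 0.0558) and bx6 in all 4 (up to 0.053). BX2 to BX5 are related P450 genes, and how reads shared between close copies were assigned is not given in the sources used here.

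The TIFY family, which holds the JAZ repressors of jasmonate signalling, had the most M-enriched calls of the 18 lists plotted above. Of 19 tested genes 6 were M-enriched and 0 BS-enriched, beside 2.07% and 3.66% of all tested genes. The median was -1.13, with 2 genes below an unadjusted p of 0.05 on the BS side by limma. TIFY4, the most abundant of the 6, had 296 and 181 FPKM in M and 53.3 and 67.1 FPKM in BS, a log2 BS/M of -1.95 ± 0.27 (SE, adjusted p = 0.0031). TIFY25 had 69.4 and 49 FPKM in M and 17.3 and 14.8 FPKM in BS, a log2 BS/M of -1.85 ± 0.24 (SE, adjusted p = 0.00223). TIFY15, TIFY6 and TIFY27 lay at -1.42 (adjusted p = 0.00456), -1.42 (adjusted p = 0.00385) and -1.58 (adjusted p = 0.00297), and TIFY1 was at or below 2.03 FPKM. Not every abundant member followed, since TIFY16 and TIFY23 had log2 BS/M of 0.17 (adjusted p = 0.822) and 0.08 (adjusted p = 0.985) and their libraries overlapped. Each of the 6 calls was lost with at least 1 library left out, and without BS replicate 2 the count fell to 2. The highest adjusted p among these fits were 0.016 for TIFY4, 0.015 for TIFY25, 0.0264 for TIFY15, 0.0229 for TIFY6, 0.0116 for TIFY27 and 0.0104 for TIFY1.

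Genes that make jasmonate were mixed. The pathway runs from lipoxygenase through allene oxide synthase to 12-oxo-phytodienoate reductase. Of 17 tested genes 1 was called, beside 5.72% of all tested genes. This was opr7, a reductase of the last group, with 13.3 and 16.8 FPKM in BS and 1.57 and 1.64 FPKM in M cells. Its log2 BS/M of 3.04 ± 0.26 (SE, adjusted p = 0.000385) held in all 4 fits with a library left out. The lipoxygenase lox10 had 324 and 416 FPKM in M and 136 and 40.9 FPKM in BS and the allene oxide synthase aos1 15.2 and 7.27 FPKM in M and 2.76 and 0.719 FPKM in BS, both with M above BS and both outside the threshold, at -2.3 (adjusted p = 0.0155) and -2.65 (adjusted p = 0.0143). In both genes BS replicate 1 was at least 3-fold above BS replicate 2.

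The called wall genes lay on both sides, with lignin genes BS-enriched and cellulose synthase and expansin genes M-enriched. Of 24 tested wall genes, with a median of -0.88, 2 were BS-enriched and 4 M-enriched, beside 3.66% and 2.07% of all tested genes. Cinnamoyl-CoA reductase cncr1 and cinnamyl alcohol dehydrogenase cad make the alcohols that lignin is built from. The first had 435 and 884 FPKM in BS and 48.1 and 83.8 FPKM in M cells, a log2 BS/M of 3.28 ± 0.40 (SE, adjusted p = 0.00189). The second had 145 and 152 FPKM in BS and 28.7 and 41.8 FPKM in M cells, a log2 BS/M of 2.09 ± 0.24 (SE, adjusted p = 0.00147). A gene of the same route outside the list, comt, which methylates lignin precursors, had 101 and 127 FPKM in BS and 16.1 and 11 FPKM in M cells, a log2 BS/M of 3.07 ± 0.24 (SE, adjusted p = 0.000225). On the M side cesa6, cesa7 and cesa2, cellulose synthase genes of the primary wall, lay at -1.23 (adjusted p = 0.00352), -1.97 (adjusted p = 0.00654) and -2.01 (adjusted p = 0.00208), at levels no higher than 7.41 FPKM. The most abundant cellulose synthase gene, cesa10, known from the secondary wall and not part of the xylem markers above, had 42.1 and 72.1 FPKM in BS and 44.2 and 53.4 FPKM in M cells, with overlapping libraries. EXPA5, an expansin that loosens walls, had 13.7 and 10.2 FPKM in M and 2.73 and 1.02 FPKM in BS, a log2 BS/M of -2.63 ± 0.40 (SE, adjusted p = 0.00459). Calls of cncr1 and cad were both lost without BS replicate 2 (adjusted p of up to 0.0127 and 0.0116), as were those of cesa7 and EXPA5 (up to 0.0423 and 0.0295), while comt, cesa6 and cesa2 kept theirs in all 4 fits.

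None of the 12 largest BS-enriched differences among annotated genes was in a gene of photosynthesis. Of the 1190 BS-enriched genes 291 had a RefSeq name or a study annotation, and the others could not enter this ranking. It also required more than 2 FPKM in both BS libraries. GRMZM2G099003, annotated as a late embryogenesis abundant protein, a class known for desiccation tolerance, had 537 and 549.6 FPKM in BS and 11.2 and 9.75 FPKM in M cells, a log2 BS/M of 5.67 ± 0.28 (SE, adjusted p = 3.9e-05). MYB59, a transcription factor, had 382 and 384 FPKM in BS and 14.1 and 12 FPKM in M cells, a log2 BS/M of 4.85 ± 0.20 (SE, adjusted p = 2.53e-05). ZAR5, a gene of the ARGOS family that regulates organ size, had 107 and 113 FPKM in BS and 4.98 and 3.98 FPKM in M cells, a log2 BS/M of 4.55 ± 0.22 (SE, adjusted p = 3.9e-05). The replicates of these 3 genes lay close together in both cells, and their calls held in every fit with a library left out. Genes annotated as auxin- or ethylene-responsive were also in this group. GRMZM2G447151 had 22.5 and 55.1 FPKM in BS and 1.08 and 1.44 FPKM in M cells, GRMZM2G066219 had 8.11 and 10 FPKM in BS and 0.238 and 0.106 FPKM in M cells, and the ethylene-related GRMZM2G030123 had 77.2 and 104 FPKM in BS and 4.96 and 5.43 FPKM in M cells, at log2 BS/M of 4.56 (adjusted p = 0.000481), 4.45 (adjusted p = 0.000337) and 4.04 (adjusted p = 0.000107). Outside the 12, the Aux/IAA gene AUX17 lay at 3.99 (adjusted p = 0.00259) and the small heat shock protein gene hsp22 at 3.69 (adjusted p = 0.00184). The 12 largest also included gln2, NIP2-1 and Myb56. LOL3, GRMZM2G008773 (a LysM domain protein) and maf1 complete the group, at 4.78 (adjusted p = 0.00413), 4.2 (adjusted p = 0.00654) and 4.06 (adjusted p = 0.00922), and all 3 lost their calls without BS replicate 1 or BS replicate 2, at adjusted p of up to 0.0245, 0.0483 and 0.0526, as AUX17 did without BS replicate 2 (up to 0.0168) and hsp22 without M replicate 2 (0.0177).

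Over 13 families of transcription factors, 16 of 223 tested genes were BS-enriched and 4 M-enriched, beside 3.66% and 2.07% of all tested genes, with a median of -0.10 and with 39 and 36 genes below an unadjusted p of 0.05 on the BS and the M side, beside 12.9% and 13.9% of all tested genes. The MYB family had 4 BS-enriched and 0 M-enriched genes of 40, with 7 below an unadjusted p of 0.05 toward M by limma. Besides MYB59, Myb56 had 15.8 and 16 FPKM in BS and 0.77 and 0.513 FPKM in M cells, a log2 BS/M of 4.19 ± 0.37 (SE, adjusted p = 0.000411). The homeobox gene HB34 had 16.5 and 16 FPKM in BS and 0.875 and 0.648 FPKM in M cells, the Dof factor DOF22 8.65 and 9.62 FPKM in BS and 0.817 and 0.458 FPKM in M cells, and bZIP111 14.3 and 20.1 FPKM in BS and 2.32 and 2.06 FPKM in M cells, at log2 BS/M of 4.03 (adjusted p = 0.00116), 3.42 (adjusted p = 0.000943) and 2.82 (adjusted p = 0.00116). These 4 calls held with each library left out. NAC20 and bZIP113 lay at 3.33 (adjusted p = 0.00449) and 2.5 (adjusted p = 0.00584) but lost their calls without BS replicate 2, at adjusted p of up to 0.0308 and 0.0387. GLK13, one of the markers above, had 240.1 and 259.8 FPKM in BS and 65.9 and 69.3 FPKM in M cells, and was lost without BS replicate 2 or M replicate 2 (up to 0.0118). Among factors higher in M, EREB93 had 9.08 and 8.31 FPKM in M and 1.73 and 1.38 FPKM in BS and WRKY1 4.12 and 3.07 FPKM in M and 0.696 and 0.991 FPKM in BS, at -2.31 (adjusted p = 0.00394) and -1.81 (adjusted p = 0.00559), and neither held in any of the 4 fits (up to 0.025 and 0.0204). Of the 16 auxin response factors tested, 0 were called by limma and 3 were below an unadjusted p of 0.05, all on the BS side.

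The largest M-enriched differences among annotated genes had mean levels of 2.98 to 124 FPKM in M. Of the 673 M-enriched genes 118 had a RefSeq name or a study annotation, and the others could not enter this ranking. KS, a gene of the ent-kaurene synthase family of diterpene enzymes, had 49.2 and 109.8 FPKM in M and 10 and 1.3 FPKM in BS, a log2 BS/M of -4.21 ± 0.75 (SE, adjusted p = 0.00918). AAMT2, an anthranilate methyltransferase of the kind that makes a leaf volatile, had 94.8 and 132 FPKM in M and 23.1 and 8.13 FPKM in BS, a log2 BS/M of -3.0 ± 0.43 (SE, adjusted p = 0.00369). MIPS2 (GRMZM2G392513), annotated as myo-inositol phosphate synthase, had 71.8 and 175 FPKM in M and 15.3 and 8.49 FPKM in BS, a log2 BS/M of -3.27 ± 0.39 (SE, adjusted p = 0.00175). In KS and in MIPS2 M replicate 2 stood over 2-fold above M replicate 1. A pair of genes annotated as aldo/keto reductases, GRMZM2G111954 and GRMZM2G132875, lay at -4.22 (adjusted p = 0.00326) and -2.75 (adjusted p = 0.00625), the LIM domain gene LIM12 at -2.97 (adjusted p = 0.00631) and Natterin-4 at -2.81 (adjusted p = 0.005). The other 3 of the 12, GRMZM5G898755, GRMZM2G049021 and GRMZM2G059138, lay between -4.28 and -3.16, beside Igl and PIP2-3 described above. These 3 are annotated, in this order, as a lipid transfer type protein, an isochorismatase type hydrolase and an auxin-related protein. All 12 lost their calls with at least 1 library left out, at adjusted p between 0.0131 for MIPS2 and 0.0697 for KS. Among abundant M-enriched genes, profilin prf5, which binds actin, had 813 and 986 FPKM in M and 431 and 397 FPKM in BS, and GRMZM2G024933, annotated only as catalytic, had 457 and 538 FPKM in M and 157 and 100.2 FPKM in BS, at -1.11 (adjusted p = 0.00171) and -1.98 (adjusted p = 0.00115), and together with cesa6 and cesa2 these were the 4 named M-enriched genes that held in all 4 fits. The plastid fatty acid desaturase fad8 and a histone H3 gene, GRMZM2G051879, lay at -0.93 (adjusted p = 0.00682) and -0.98 (adjusted p = 0.00799) and did not (up to 0.0303 and 0.0419).

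Some calls had the other cell type at 0 in both libraries, 104 on the BS side and 169 on the M side, and 91 and 151 of them have no entry in the RefSeq gene table. In FPKM files a listed 0 can be a failed estimate, and the 2 models of largest fitted difference in each direction are given by their values alone. GRMZM2G530609 had 346 and 307 FPKM in BS and was listed at 0 in the other 10 libraries of the study. GRMZM2G571088 had 99.8 and 892 FPKM in BS, so that its replicates lay far apart, and 39.7 and 40.6 FPKM in maturing BS, and was listed at 0 elsewhere. On the M side, GRMZM2G545766 had 317 and 929.9 FPKM in M and was listed at 0 in both mature BS libraries, yet it had 296 to 628 FPKM in the 8 libraries of the other sections. GRMZM2G526198 behaved alike, with 279 and 124 FPKM in M, 0 in BS and 108 to 636 FPKM elsewhere. No fold is given for such genes.

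The bias of the mature section was then set against that of the younger sections. Of the 1190 BS-enriched genes 590 were also BS-enriched in the maturing section and 284 at the SST, and 565 were called in the mature section alone. Of the 673 M-enriched genes these counts were 217, 121 and 419. A call in 1 section alone does not show a difference, so the change of log2 BS/M was tested. Against the maturing section 304 genes changed, 0.934% of those tested, 116 toward BS (0.356%) and 188 toward M (0.578%). Against the SST 239 genes changed (0.734%), 134 toward BS (0.412%) and 105 toward M (0.323%). Of the 188 genes that shifted toward M against the maturing section, 101 were not called in the mature section and 123 were called in the maturing section. The 2 comparisons share the mature libraries. Leaving out 1 mature library raised these counts, to 673 to 1113 against the maturing section and to 608 to 1078 against the SST.

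Among named genes that shifted toward BS, AAMT1, a second anthranilate methyltransferase, changed sides while its level fell. It had 1.77 and 2.33 FPKM in BS and 0.309 and 0.206 FPKM in M in the mature section, 4.68 and 5.76 FPKM and 13.7 and 12.4 FPKM in the same order in the maturing section, and 6.0 and 7.22 FPKM and 29.5 and 22 FPKM at the SST. Its log2 BS/M was thus 2.17 after -1.28 and -1.91, and both changes held with each library left out. The paralogue AAMT2 was M-enriched in the mature section, as described above. The receptor kinase gene ltk1 went from 2.98 and 3.99 FPKM in BS and 12.1 and 12.1 FPKM in M in the maturing section to 21.5 and 36.4 FPKM and 9.71 and 8.77 FPKM in the mature section, and the change was lost without M replicate 2 (adjusted p = 0.0109). BX3 was higher in M in the maturing section, 83.1 and 90 FPKM against 53.3 and 63.3 FPKM in BS, and higher in BS in the mature section. This change was lost in 3 of the 4 fits with a library left out, at adjusted p of up to 0.0144. The aquaporin PIP1-5 had 50 and 51.5 FPKM in BS and 140.2 and 110.4 FPKM in M at the SST, opposite to its mature levels, and that change held in all 4 fits.

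ZAR5 rose in level as well as in bias, from 2.76 and 2.12 FPKM in BS at the SST and 1.41 and 1.83 FPKM in the maturing section to 107 and 113 FPKM in the mature section. The auxin-responsive GRMZM2G447151 was listed at 0 in all 8 libraries of the younger sections, and its changes were lost without M replicate 1 or M replicate 2 (adjusted p of up to 0.0114). The comt transcript was at 503 and 506 FPKM in BS at the SST, at 172 and 123 FPKM in the maturing section and at 101 and 127 FPKM in the mature section, while its M level fell from 124 and 135 FPKM to 16.1 and 11 FPKM between the last 2, so that the mature bias came with a low M level. Without BS replicate 2 the change of comt against the maturing section had an adjusted p of 0.0112.

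Other genes had a strong BS bias in the maturing section that was gone in the mature section, together with most of their transcript. CST1, annotated in the study as a member of the MtN3 family of sugar transporters, had 517 and 447 FPKM in maturing BS and 15.1 and 13 FPKM in maturing M, and no mature library was above 0.876 FPKM. The glutamine synthetase gene gln3 had 23.3 and 21.6 FPKM in maturing BS and 0.283 and 0.868 FPKM in mature BS. The potassium channel gene K2.1 had 26.1 and 20.3 FPKM and 0.446 and 0.279 FPKM, and its change was lost with each of the 4 libraries left out (adjusted p of up to 0.0242). At such levels in the mature section, a bias could not be read with any precision, and the log2 BS/M of K2.1 had an interval from -1.37 to 1.22. PIP2-1 was different, since it stayed abundant. It had 200.3 and 204 FPKM in BS and 62.9 and 56.8 FPKM in M in the maturing section, and 297 and 264 FPKM and 293 and 342 FPKM in the mature section, and its log2 BS/M went from 1.75 to -0.18. A gene annotated as fructose-1,6-bisphosphatase, GRMZM2G322953, had 235 and 176 FPKM in maturing BS and 13.1 and 9.63 FPKM in maturing M, against 34.3 and 41.7 FPKM and 27.9 and 23.2 FPKM in the mature section. MIPS2 went from 459 and 502 FPKM in BS and 288 and 269 FPKM in M in the maturing section to the M-enriched levels given above, and this change was lost without BS replicate 2 (adjusted p = 0.0202).

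**Figure D5:**
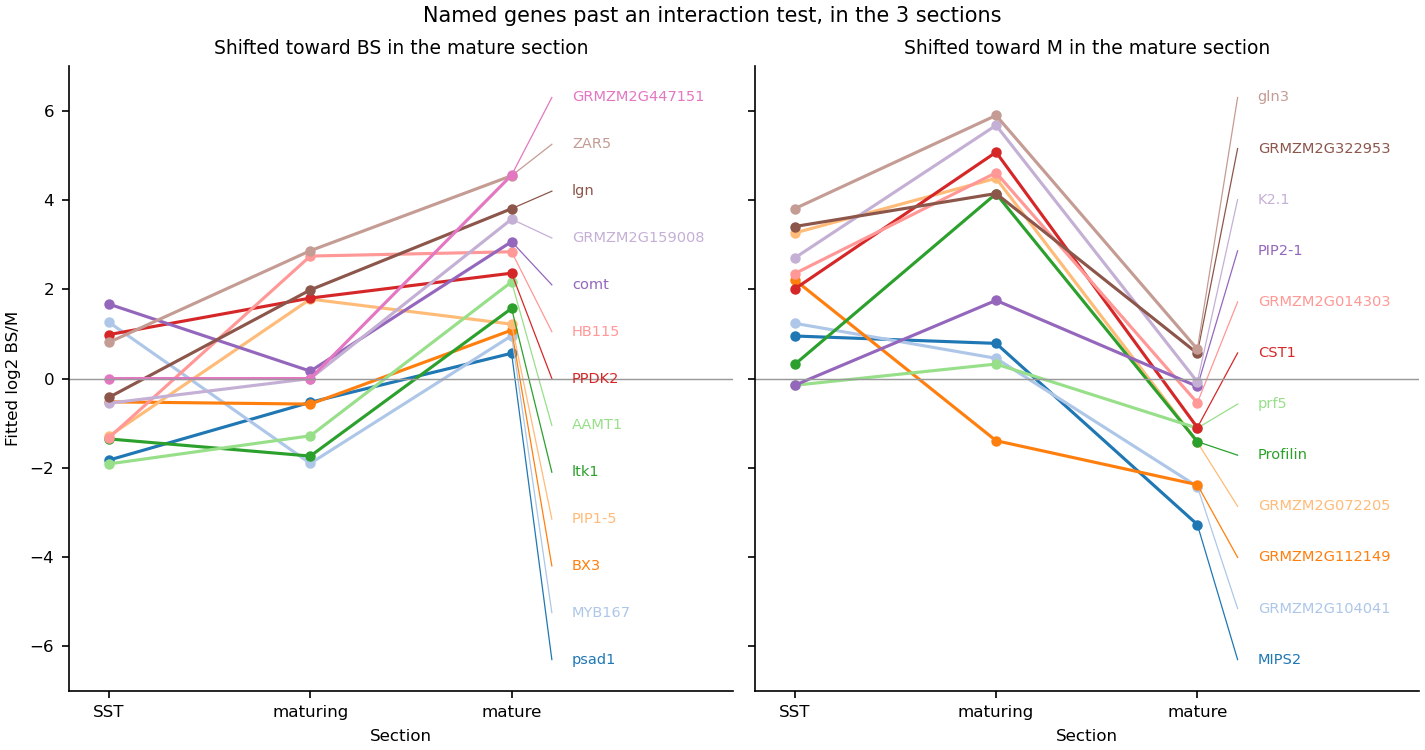
Fitted log2 BS/M at the SST, in the maturing section and in the mature section for the 25 named genes whose bias in the mature section differed from that of another section at an adjusted p below 0.01, with genes that shifted toward BS on the left and toward M on the right, 1 line per gene. On the right most lines are highest in the maturing section, such as gln3 at 5.9, and end near or below 0.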

How the data were processed

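Gene expression was measured by RNA sequencing of laser-captured maize leaf cells. The authors deposited FPKM values, made per the submitters' processing notes with CASAVA 1.3, TopHat2 2.0.10 and Cuffdiff 2.1.1 on B73 RefGen v3, the methods naming an earlier version of that genome. Mo17 reads were thus aligned to B73, and amplification favours the 3' end. Read counts are unknown, so precision is given by replicates alone, and nothing states that replicates came from separate plants: p-values measure the spread between these libraries.

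FPKM were scaled to a common upper quartile (2.56) and analysed as log2(FPKM + 0.256), which understates changes of low genes. The 32548 genes whose mean reached 0.256 FPKM in any of the 6 groups were tested with limma 3.58.1 (R 4.3.3): 6 group means over 12 libraries, trended moderation, Benjamini-Hochberg adjustment, called at 0.01. Tables used Python 3.11.15 with pandas 2.3.3 and NumPy 2.4.6, plots matplotlib 3.10.9. The code was tested on simulated data. Alternatives were scaling, pseudocount, filter, trend, block and leaving out each library.

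Members and lists were chosen with earlier results of these data known. Named were list members that the study gives by identifier, up to 6 of the most abundant genes of each list, the 12 largest annotated differences and the 10 most abundant annotated calls per direction, and up to 6 of the largest stage changes per direction, without annotated retrotransposons. A further 34 members of the lists were named after their values were seen. Lists rest on RefSeq names (15403 members matched) and the study's annotation texts (1392), since the planned search used gene descriptions that were not used here. Promoters and sequences were not analysed, and 1 list member is not reported here.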

Additional observations from a re-analysis of the deposited data

Results flagged for a closer look

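The BS/M difference in the mature section was tested against that of the other sections, and 33 changes in 25 named genes passed an adjusted p of 0.01. Of these, 18 changes in 16 genes kept that call with each mature library left out. Values are the log2 BS/M of the mature section minus that of the other section, so that a positive value is a shift toward BS.

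Shifts toward BS against the maturing section were 1.66 for BX3, 4.56 for GRMZM2G447151, 3.57 for GRMZM2G159008, annotated as an inositol polyphosphate 5-phosphatase, 3.45 for AAMT1, 3.31 for ltk1, 2.90 for comt and 2.86 for MYB167. Shifts toward BS against the SST were 1.38 for PPDK2, 2.39 for psad1, 4.56 for GRMZM2G447151, 3.73 for ZAR5, 4.13 for GRMZM2G159008, 4.08 for AAMT1, 2.93 for ltk1, 4.23 for lgn, a receptor-like kinase gene of leaf development, 4.17 for the homeobox gene HB115 and 2.51 for PIP1-5. GRMZM2G447151 was listed at 0 in all libraries of the younger sections and GRMZM2G159008 in those of the maturing section, so the sizes of their changes depend on the pseudocount. The change of GRMZM2G159008 against the maturing section was lost without BS replicate 2. That of ltk1 against the SST was lost without M replicate 1 or M replicate 2. The gene psad1, a photosystem I subunit, had 29.4 and 20.4 FPKM in BS and 76.5 and 100.2 FPKM in M at the SST and 1259.9 and 1248 FPKM and 746 and 960.1 FPKM in the mature section, and its change was lost without BS replicate 1, BS replicate 2 or M replicate 1 (adjusted p of up to 0.0163). The lgn transcript had 6.77 and 8.23 FPKM in mature BS and at most 0.375 FPKM in any SST library, and its change was lost without BS replicate 2 (adjusted p = 0.0118).

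Shifts toward M against the maturing section were -1.93 for PIP2-1, -4.06 for MIPS2, -1.44 for prf5, -6.17 for CST1, -5.92 for GRMZM2G072205, annotated as the fatty acid synthesis enzyme FAB1, -5.75 for K2.1, -5.56 for a profilin gene (GRMZM2G140455), -5.24 for gln3, -5.16 for GRMZM2G014303, annotated as a choline kinase, -2.87 for GRMZM2G104041, annotated with a heavy-metal-associated domain, and -3.58 for GRMZM2G322953. Those against the SST were -4.23 for MIPS2, -4.69 for GRMZM2G072205, -4.59 for GRMZM2G112149, annotated as a methionine synthase, -3.66 for GRMZM2G104041 and -2.84 for GRMZM2G322953. The change of K2.1 was lost with each of the 4 libraries left out (adjusted p of up to 0.0242), those of MIPS2 and prf5 without BS replicate 2 (up to 0.0202 and 0.0115). For GRMZM2G072205 the change against the SST and for GRMZM2G104041 that against the maturing section were lost in 3 of the 4 fits (up to 0.0174 and 0.0208). The profilin gene GRMZM2G140455 had 4.18 and 4.36 FPKM in maturing BS and was listed at 0 in maturing M, whereas prf5 stayed at 397 FPKM or more in all mature and maturing libraries.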

How the results depend on the processing

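With other settings every one of the 1863 called genes that was tested kept its direction (1863 in each setting but the stricter filter, which tested 1785). In each called gene the libraries of the 2 cell types did not overlap, so only the 2 other scalings could have turned a direction. Scaling, pseudocount, filters and the trend moved the counts by less than 1.5 times, to 989 to 1418 BS-enriched and 487 to 911 M-enriched genes, and 2 other scalings gave a BS share of the calls of 61.4 and 64.1% beside 63.9%. A threshold of 0.05 gave 2511 and 2215 calls. A fit to the mature libraries alone called 9 BS-enriched and 2 M-enriched genes, 5 and 2 of them among the main calls, and 2 of the 123 named calls held in it. Whether same-numbered libraries are pairs is not stated. Deviations of same-numbered BS and M libraries correlated across genes at r = -0.02 in the mature section. The values were -0.007 in the maturing section and 0.016 at the SST. They cannot decide on a pairing, since noise of the single libraries could hide a shared source. With a replicate block within each section the counts were 235 BS-enriched and 53 M-enriched genes and 0 changes against either section by limma. A replicate block over all sections gave 394 M-enriched genes and 164 and 137 changes against the maturing section and the SST.

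With each mature library left out in turn the BS-enriched count ran from 765 to 1615, the M-enriched count from 356 to 1027, the changes against the maturing section from 673 to 1113 and those against the SST from 608 to 1078. The BS share of calls was 47.7% without M replicate 1, 52.9% without M replicate 2 and 73.5% without BS replicate 2. The log2 BS/M of 12 genes that were not called changed sign in these fits, and ran from -0.17 to 0.056 for RLSB, -1.16 to 2.49 for pck2, -0.23 to 0.40 for bsd2, -0.055 to 0.54 for psaN, -0.18 to 0.27 for PSA3, -0.24 to 0.54 for PGR5, -0.18 to 0.39 for y1, -0.19 to 0.043 for oy1, -0.15 to 0.50 for TIFY16, -0.18 to 0.34 for TIFY23, -0.20 to 0.57 for cesa10 and -0.27 to 0.12 for K2.1. The cause of these dependences was not tested. Without counts, depth limits what can be said of genes below about 1 FPKM, since a listed 0 has no floor, and pooled spread over 6 groups stands in for replicates of the mature section.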

Other observations

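A few gene groups outside the C4 and photosynthetic pathways gave values that stand beside the comparison above. Of 33 tested ribosomal protein genes with a name, 0 were BS-enriched and 1 was M-enriched, and 13 lay below an unadjusted p of 0.05 on the M side against 1 on the BS side by limma, with a median log2 BS/M of -0.40 beside 0 over all genes tested. Cuticle and epidermal genes had 0 calls of 10 by limma, with 8 below an unadjusted p of 0.05 toward M, 0 toward BS and a median of -1.40. Their levels summed to 11.3 and 4.63 FPKM in BS and to 25.7 and 27.5 FPKM in M. Heat shock factors and proteins had 4 BS-enriched and 0 M-enriched genes of 23, beside 3.66% and 2.07% of all tested genes. Their median was 0.00, with 3 below an unadjusted p of 0.05 toward M by limma. Glutathione S-transferases, with 0 calls of 26, and the receptors, phosphatases and kinases of abscisic acid signalling, with 0 of 32, had 4 and 5 genes below an unadjusted p of 0.05 toward BS and 6 and 5 toward M by limma, beside 12.9% of all tested genes toward BS and 13.9% toward M.

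Among the genes the study annotated, which it chose on these samples, those of ethylene had 7 BS-enriched and 1 M-enriched of 32 and those of auxin 8 and 2 of 59. Those of steroid and squalene synthesis had 0 and 4 of 20, where 2 were below an unadjusted p of 0.05 toward BS by limma. Of all tested genes 3.66% were BS-enriched and 2.07% M-enriched. Other annotated groups had larger counts, such as the synthesis part of major carbohydrate metabolism with 13 and 3 of 28. In the raffinose family 7 of 8 genes lay below an unadjusted p of 0.05 toward M by limma, beside 13.9% of all tested genes. The median was -1.46, and none was called.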
